A study of Mus musculus with 6 samples.

Results

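The R6 library is a set of short double-stranded DNAs in which 3 adjacent bases of a Gli binding site were varied. The results below concern the 16 sequences, of the 64 in the library, whose last varied base is C. The rule for choosing them was that base alone, though earlier results of these data were known by then. The C stands at position 13 of the site, directly before a fixed G at position 14, so each of the 16 holds a CpG there. In 4 of them the first varied base is G, which forms a second CpG with the fixed C at position 10, and in the other 12 it is A, C or T. Of these 12, CGC holds a further CpG at position 11.

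Gli proteins are zinc finger transcription factors that act at the end of the Hedgehog signalling pathway, where they bind regulatory DNA and change transcription of target genes. In a CpG, the cytosine of each strand can carry a methyl group on its carbon 5, which lies in the major groove where zinc fingers read bases. M.SssI is a bacterial methyltransferase that methylates the cytosines of CpG and of no other dinucleotide.

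Barcoded R6 DNA was incubated in vitro with recombinant mouse Gli, which the titles call Gli1. The protein-bound DNA was parted from free DNA by gel electrophoresis, and each fraction was amplified by at least 8 PCR cycles and sequenced. The reaction held 4 forms of R6 together. These were unmethylated DNA, DNA methylated on the top strand alone (hemimethylated), DNA methylated on each strand (duplex methylated) and DNA treated with M.SssI. Which bases carried the methyl groups in the hemimethylated and duplex forms is not given in the labels. All forms shared the same protein and gel, with 1 bound and 1 unbound library, so no value has a replicate. Errors below are counting standard errors (SE) of the reads. They cover counting error only, because PCR copies of a molecule were not marked and can be counted more than once. A block means the 64 sequences of 1 form.

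The sequences are shown to place the CpGs, which are in capitals, within the site. Position 1 is the leftmost base, and the varied bases are at positions 11 to 13. The R6 table lists only the varied bases. The surrounding bases are those of the matching entries among the deposited 16-base sequences, and for R6 the first 9 bases rest on that match alone.
Member GAC: gaccacccaCGaCGaa
Member GCC: gaccacccaCGcCGaa
Member GGC: gaccacccaCGgCGaa
Member GTC: gaccacccaCGtCGaa
Member CGC: gaccacccacCGCGaa
Member CAC: gaccacccaccaCGaa
Member AAC: gaccacccacaaCGaa
Member ATC: gaccacccacatCGaa
Member TCC: gaccacccactcCGaa
Partner GTT: gaccacccaCGttgaa
Partner ATT: gaccacccacattgaa
The first 5 hold a pair of CpGs each, the next 4 only that at position 13. GTT and ATT are not among the 16. They differ from GTC and ATC by T at position 13, and GTT keeps only the CpG at position 10.

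The placing of R6 was checked with the 16 sequences in another reaction, titled R4-R6, which held an R6 block and a library, R4, with 7 listed bases that end in GAA. The R6 and R4 values differed with an SD of 0.06 on the natural log scale when the R4 sequence had C at position 10, where counting alone gives an SE of 0.07, and the median difference was 0.01. For R4 sequences with A, G and T in that place the SD was 0.55, 0.35 and 0.34, and the R4 values lay lower by a median of 3.25-fold, 3.33-fold and 3.07-fold. The characteristics of the R4-R6 samples name a CTCF library, in conflict with their titles, and give no methylation state for these blocks.

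Binding is given as the ratio of bound to unbound reads, and its natural log was compared within a block. In the unmethylated block the 16 sequences spanned a 14.8-fold range, from GTC, with 3215 bound and 270 unbound reads and a ratio of 11.9, to TCC, with 547 and 679 reads and a ratio of 0.806. They thus reached from the second highest to the lowest of the 64 ranks. Their median ratio was 3.69, against 2.83 for the 48 sequences ending in another base.

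The 4 sequences with G first were GTC, GAC, at 11.3, GGC, at 5.30, and GCC, at 2.92. Without G first the highest ratios were those of ATC, 6.21, CAC, 4.996, AGC, 4.78, and CGC, 4.65. AAC followed with 3.75, TGC with 3.62, TAC with 3.52, CTC with 3.02 and TTC with 2.58. C at position 12 marked the low end: ACC had 1.56, CCC 0.972 and TCC 0.806. Over the 4 members with C at position 12 the geometric mean was 1.37, against 5.23 for A, 4.54 for G and 4.90 for T.

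Without methylation, exchanging C for T at position 13 moved binding by at most 1.52-fold. Each member was set against the sequence with the same first bases and T last in the same block, a comparison that needs no scaling between blocks. The log ratio of C minus that of T ran from -0.28 ± 0.07 in TCC to 0.42 ± 0.09 in CAC, with a median of 0.09. It was within 2 counting SE of 0 in 8 of the 16 pairs, higher in 6 and lower in 2. GTC and GTT, with ratios of 11.9 and 12.3, differed by -0.03 ± 0.09.

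The same small pattern came back when R6 was measured in the R4-R6 reaction. There the C minus T difference ran from -0.32 in TCC to 0.34 in CAC, and it differed from that of the unmethylated block by -0.12 to 0.11 over the 16 pairs, with counting SEs between 0.06 and 0.11. The ratios themselves were lower in all 16 members, by a median of 1.68-fold, and the low ones were lower by more, with a slope of 1.16 between the log ratios. Across the 16, which share libraries within each reaction, r was 0.995. GTC, GAC and ATC had 7.57, 7.45 and 3.51 in that block, and CCC and TCC 0.400 and 0.378. The R4 library gave 6.82, 7.08 and 3.49 for the first set and 0.407 and 0.438 for the second, so the order of these 5 differed between the libraries only among neighbours whose values lay within 2 counting SE.

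In the M.SssI block the 16 sequences moved from across the whole range to its bottom. This comparison asks how methylation of CpG changes binding. All 16 fell, by a median of 11.2-fold relative to the 30 sequences that hold no CpG with fixed neighbours counted. A sequence was called lower when it fell over 2-fold and by over 2 counting SE after centring on the median of those 30. Over all 64 sequences, 35.9% were called lower, 23 in number, and 0% higher. The 7 called sequences that were not members all began with G, and 0 of the 30 without CpG were called.

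Of the 64 ratios of the M.SssI block, the lowest 15 were all of members. The exception among the 16 was ATC, at rank 46, with 1580 bound and 1419 unbound reads and a ratio of 1.11. The lowest non-member, CGG, had 0.971. The members took 24.1% (Wilson 95% interval 23.9 to 24.4%) of bound and 17.7% (17.3 to 18.0%) of unbound reads in the unmethylated block. In the M.SssI block they took 5.96% (5.85 to 6.07%) of bound and 29.0% (28.7 to 29.3%) of unbound reads.

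With a CpG at positions 10 and 13, the 4 sequences fell by a median of 22.4-fold. GAC went from 11.3 to 0.337, a centred change of -3.66 ± 0.09. GTC went from 11.9 to 0.652, a change of -3.05 ± 0.07. GGC reached 0.267 and GCC 0.155, with changes of -3.14 ± 0.06 and -3.08 ± 0.08. GAC fell furthest of the 16, while the other 3 lay within counting error of each other.

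The 12 sequences without G first fell by a median of 8.34-fold, and the size of the fall went with the base at position 12. With T there, the changes of ATC, CTC and TTC were -1.87 ± 0.07, -1.93 ± 0.07 and -1.92 ± 0.06. With C there, those of ACC, TCC and CCC were -1.92 ± 0.09, -1.94 ± 0.10 and -2.07 ± 0.11. The values for a pyrimidine at position 12 thus lay within 2 counting SE of each other.

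A purine at position 12 came with larger falls. With G, AGC changed by -2.18 ± 0.07 and TGC by -2.42 ± 0.06. With A, AAC changed by -2.42 ± 0.08 and TAC by -2.48 ± 0.08. The groups did not overlap, but their nearest members, AGC and CCC, lay within counting error. Sequences that do not end in C had no such order, with medians by the base at position 12 of 0.00 for A, 0.01 for C, -0.13 for G and -0.04 for T. The difference between purines and pyrimidines was described after the values were seen and was not tested.

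CAC and CGC fell about as far as GCC, GGC and GTC, but less far than GAC. The change of GAC minus that of CAC was -0.57 ± 0.13, and that of GGC minus that of CGC was -0.05 ± 0.09. CAC went from 4.996 to 0.263, a centred 22.0-fold fall, with 294 bound and 1119 unbound reads. Its change minus that of AAC was -0.68 ± 0.13, and that of TAC was higher than its own by 0.62 ± 0.12, though all 3 hold only the CpG at position 13. CGC, which holds the additional CpG at position 11, went from 4.65 to 0.247, and its change minus that of AGC was -0.91 ± 0.10. C as the first base did not do the same before C or T, where CCC and CTC differed from ACC and ATC by -0.14 ± 0.15 and -0.07 ± 0.10.

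Measured inside the M.SssI block alone, C at position 13 bound less than T in all 16 pairs, by a median of 9.57-fold. The log difference ran from -1.68 ± 0.05 for ATC, whose partner ATT had a ratio of 5.95, to -2.70 ± 0.08 for CAC, whose partner CAT had 3.93. GTC stood at 0.652 against 6.63 for GTT, and GAC at 0.337 against 5.03 for GAT. In the 4 pairs with G first the position 10 CpG is in each sequence of the pair, so the difference concerns position 13. Its median there was 12.6-fold, against 8.58-fold in the 12 other pairs.

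Most of what G at position 11 added to binding over T in the unmethylated block was absent from the M.SssI block. In the unmethylated block GTC exceeded TTC 4.61-fold, GCC exceeded TCC 3.62-fold, GAC exceeded TAC 3.22-fold and GGC exceeded TGC 1.46-fold. In the M.SssI block the log differences were 0.40 ± 0.05 for GTC, 0.14 ± 0.10 for GCC, -0.02 ± 0.07 for GAC and -0.34 ± 0.06 for GGC. Only GTC kept an excess over T of more than 2 counting SE, 1.49-fold, and GGC bound less than TGC. The excess depends on the base compared. Unmethylated members had geometric mean ratios of 6.75 with G first, 3.63 with A, 2.87 with C and 2.27 with T. In the M.SssI block each ratio with G first was below that with A first. GTC had 0.652 against 1.11 for ATC, and GAC 0.337 against 0.388 for AAC. GCC had 0.155 against 0.265 for ACC, and GGC 0.267 against 0.629 for AGC. In sequences ending in T, which hold no CpG at position 13, the median excess of G over T went from 3.28-fold to 1.43-fold, and GTT kept 2.16-fold over TTT.

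The separate changes were added and set against the joint ones. For each of the 4, the change of the sequence with T last stood for position 10, and the median change of members with the same middle base and no G first, CGC left out, stood for position 13. GAC changed by -3.66 against a sum of -3.27, GCC by -3.08 against -2.87, GGC by -3.14 against -2.66 and GTC by -3.05 against -2.69. The excess was -0.39 ± 0.13, -0.21 ± 0.12, -0.48 ± 0.09 and -0.36 ± 0.11. With centring as above, all 4 lay below the sum, by a median of 1.46-fold, and GCC by less than 2 counting SE. The centre, 0.15 in this block, enters each excess once, so without centring each would lie lower by 0.15. Centring was not varied for this comparison.

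The sum also depends on which sequence stands for position 13. With CAC alone in its place, GAC lay above the sum by 0.23, and with AAC alone it lay below, at -0.45. GTC lay below the sum with each of its 3 substitutes, between -0.42 and -0.35. The excess of GAC is therefore not larger than the spread between the members that stand for position 13.

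The top-hemimethylated block bound less in all 64 sequences, members and others alike, and centring removes a shift shared by all. The centred changes thus cannot show a change in binding that all sequences share, and the cause of the shift was not tested. After centring, 0 of the 16 members passed a 2-fold change, as did 0% of all 64. The centred changes ran from -0.54 ± 0.08 in ATC to 0.31 ± 0.08 in TAC. Their SD of 0.25 was close to the 0.24 of sequences without CpG, so members spread about as widely as these. Without centring, 15 of the 16 were over 2-fold lower, but the share of all 64 passing that rule was not computed. The 30 sequences without CpG also fell, by a median of 2.49-fold, so a fall of over 2-fold was not particular to members.

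The order of members was similar in this block, with some exchanges. GAC had the highest ratio of the 16, 4.52, ahead of GTC, at 2.94, and GGC and CAC, both at 2.27. ATC, which came directly after GTC and GAC without methylation, had 1.46 here and lay below CGC, at 1.62. TCC and CCC were again lowest, at 0.311 and 0.332. Across the 16, which share libraries and base composition, r with the unmethylated block was 0.943. G at position 11 still went with higher ratios, and GTC exceeded TTC 4.12-fold and GAC exceeded TAC 2.34-fold.

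Grouped by the base at position 12, members with T there had the lowest median centred change, -0.43, with a range from -0.54 to -0.27. GCC, at -0.41, and AGC, at -0.35, lay within that range. This was not particular to a CpG at position 13, as the 12 sequences with T at position 12 and another last base lay between -0.42 and -0.08. Against partners ending in T, the C minus T difference changed from the unmethylated block by a median of -0.16, from -0.33 ± 0.09 in GGC to 0.01 ± 0.12 in AAC. The change was below 0 in every pair but AAC. In the M.SssI block the median of the same quantity was -2.23. Within the hemimethylated block, C was lower than T by over 2 counting SE in 8 of 16 pairs, higher in 2 and within 2 SE in 6.

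The duplex methylated block was the shallowest, with 8257 bound and 9273 unbound reads and between 43 and 402 reads per count for the members. As listed, its order of sequences differs from that of the unmethylated block, with r = -0.141 over all 64, and r rises to 0.633 when the listed bases are read in reverse. Which 16 sequences of this block end in C thus depends on the reading. As listed, the members spanned 6.19-fold, from ATC and AAC, at 1.44 and 1.39, to CCC, at 0.232.

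With bases as listed, 4 of 16 members were called lower after centring, where 20.3% of all 64 were lower and 26.6% higher, so the share is near the background. The 4 were those with G first. GAC, GCC, GGC and GTC changed by -1.35 ± 0.14, -0.78 ± 0.14, -1.55 ± 0.18 and -1.30 ± 0.15, and the 12 others lay between -0.56 and 0.66. Of the 12 sequences with G first and another last base, 7 were also called lower and 3 higher. Sequences without CpG spread with an SD of 1.06 here, against 0.06 in the M.SssI block.

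Read in reverse, 10 of 16 were called lower, 2 of them with G first, against 20.3% of all 64. The median changes were then -0.69 with G first and -0.72 without, so the separation by first base seen as listed was not there. It was there when the block was read as the reverse complement, with medians of -1.53 and -0.14. Then 9 of 16 were called lower, all 4 with G first among them, and 2 higher. Of all 64, 32.8% were lower and 15 sequences were higher. Read as the complement, 2 of 16 were called lower and 10 higher, with medians of -0.78 and 1.16. Under that reading 28.1% of all 64 were lower and 15 of the 64 were higher. Within the block as listed, C at position 13 was lower than T by over 2 counting SE in 4 of 16 pairs and within 2 SE in 12. The median difference was -0.17, against -2.26 in the M.SssI block.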

How the data were processed

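Each of 3 reactions has 1 bound and 1 unbound library. The authors deposited whole-number read counts per sequence for bound and unbound DNA, per the file headers, without scaling for depth. How reads were counted and filtered is not given in the sources used here. Block headings gave the methylation state. The R6 and R4-R6 tables were used. Of the 16-base table, which names no reaction, only the sequences were read. The unmethylated, hemimethylated, duplex and M.SssI blocks held 114228, 52135, 8257 and 174691 bound and 40596, 43448, 9273 and 90103 unbound reads.

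Relative binding was the natural log of bound over unbound counts after adding 0.5 to each, with at least 10 reads in each, which all sequences had. The counting SE was the square root of the summed reciprocal counts. Changes were differences from the unmethylated block, centred on the median of the 30 sequences without CpG. A call needed over 2-fold and over 2 counting SE. With 1 library per fraction no p-value was computed. All 16 members were named, with the sequences compared with them. Pseudocounts, count minimums, centring, reference block, fold and reading of the duplex block were varied, though not each for every result. Centring was not varied for the joint change. The arithmetic was tested on simulated data. Members and comparisons were chosen with earlier results of these data known. Python 3.11.15, numpy 2.4.6 and scipy 1.17.1 were used.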

Additional observations from a re-analysis of the deposited data

How the results depend on the processing

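Of 131 values under alternatives, 101 stayed within a set tolerance of the value reported (counts within 1.5 times) and 30 moved. The tolerance was the 95% counting interval of a typical single sequence or pair, which is wider than that of a median over several. Of the values over 2-fold, 0 changed sign. The share of all 64 sequences called was computed only under the call rule reported above and for the readings of the duplex block. The other counts of members called have no such share beside them. In the M.SssI block all 16 members stayed called lower under every alternative run. The medians with and without G first were -2.96 and -1.97 without centring, -2.59 and -1.60 centred on the block's total reads, and -3.41 and -2.28 against R6 as measured in the R4-R6 reaction. In the hemimethylated block they were -1.12 and -1.01 without centring, where 15 of 16 were called lower. Before centring, the sequences without CpG had a median fall of 2.49-fold in that block. With centring, 3 members were called there at 1.5-fold. Against the other reaction 2 were called and the median with G first was -0.52. In the duplex block the medians with and without G first were -2.68 and -1.43 without centring, with 16 called. Before centring, the sequences without CpG had a median fall of 3.88-fold in the duplex block. With at least 100 reads per count the medians of members were -1.72 (1 sequence left) and -0.46 (10 left). Against the other reaction they were -1.66 and -0.33, with 7 called. At 1.5-fold 7 were called. Read in reverse they were -0.69 and -0.72, with 10 called, and as the reverse complement -1.53 and -0.14, with 9 called. Read as the complement, added after seeing the data, they were -0.78 and 1.16, with 2 called lower and 10 higher. With A as the partner base the median difference of C in the duplex block was 0.35. The median excess of the joint change was -0.082 with C as the only first base standing for position 13, also added after seeing the data. No paired analysis was possible because each fraction has 1 library. The cause of these shifts was not tested. The duplex block has the fewest reads, and its values also depend on the reading of its bases.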
